A study of Mus musculus with 10 samples.

Results

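The annexins and formyl peptide receptors described here are 10 genes, the 8 annexin genes Anxa1, Anxa2, Anxa3, Anxa4, Anxa5, Anxa6, Anxa7 and Anxa11 and the receptor genes Fpr1 and Fpr2. They were chosen by symbol, from gene identifiers matched to the GENCODE annotation of mm10, out of 48526 genes in the count table, and all 10 had a row. The rule uses symbols and no measured value. The libraries were RNA-seq of mouse cells isolated by fluorescence-activated sorting and labelled aortic endothelial cells. There were 5 libraries from stressed mice, which underwent acute mental stress lasting 3 h a day for 3 days in a row, and 5 from non-stressed mice. The strain of both groups is given as ApoE, with no more of the genotype, and the labels used here give neither age nor whether a library is 1 animal or a pool.

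Annexins are proteins that bind acidic phospholipids of membranes when calcium rises, and they act in membrane repair, vesicle fusion and the handling of dying cells. Annexin A1, first known as lipocortin, is induced by glucocorticoids in several leukocyte types, is released by them, and acts on formyl peptide receptors to restrain the recruitment of neutrophils and monocytes. Formyl peptide receptors are G protein-coupled receptors of phagocytes that also sense formylated peptides of bacteria and mitochondria. The comparison bears on whether transcripts of a glucocorticoid effector and its receptors differ after stress in sorted cells labelled aortic endothelial.

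Anxa1 had the largest log2 fold change of the 8 annexin genes chosen, Fpr1 the widest spread between libraries, and Fpr1 and Fpr2 lie head to head on chromosome 17 with 3883 bases between their annotated starts. The upstream sequences of these genes and of Anxa2, which varied together with Anxa1 over the 10 libraries before centring on the group means, are therefore shown. Each is the 250 bases before the RefSeq start (GRCm38.p6, 5′ to 3′ on the strand of the gene). They are chr19:20390672-20390921 minus for Anxa1, chr9:69453433-69453682 plus for Anxa2, chr17:17883940-17884189 minus for Fpr1 and chr17:17887574-17887823 plus for Fpr2. Capitals mark matches on either strand to TATAAAA (the TATA box), AGAACA (the hexamer that a glucocorticoid response element holds as an inverted repeat) and GAGGAA (a core recognised by the myeloid factor PU.1).
Anxa1: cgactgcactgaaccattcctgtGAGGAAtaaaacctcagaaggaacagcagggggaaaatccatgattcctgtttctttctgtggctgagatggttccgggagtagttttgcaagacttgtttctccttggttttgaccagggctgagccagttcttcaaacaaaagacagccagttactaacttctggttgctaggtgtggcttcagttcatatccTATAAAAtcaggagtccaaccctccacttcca
Anxa2: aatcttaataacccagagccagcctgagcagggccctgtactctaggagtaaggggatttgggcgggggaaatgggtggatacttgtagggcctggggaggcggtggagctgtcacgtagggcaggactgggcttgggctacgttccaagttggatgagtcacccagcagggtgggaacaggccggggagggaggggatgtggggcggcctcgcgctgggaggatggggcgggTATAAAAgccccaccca
Fpr1: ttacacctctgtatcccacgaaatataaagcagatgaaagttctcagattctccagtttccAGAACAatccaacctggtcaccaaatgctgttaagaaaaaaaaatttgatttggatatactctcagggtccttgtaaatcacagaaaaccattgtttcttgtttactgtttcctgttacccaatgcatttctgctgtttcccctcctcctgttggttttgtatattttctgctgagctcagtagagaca
Fpr2: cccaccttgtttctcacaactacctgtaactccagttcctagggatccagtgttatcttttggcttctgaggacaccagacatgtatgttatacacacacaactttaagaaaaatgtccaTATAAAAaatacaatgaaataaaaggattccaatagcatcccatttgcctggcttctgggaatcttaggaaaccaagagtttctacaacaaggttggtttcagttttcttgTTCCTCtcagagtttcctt

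RefSeq windows were at hand for 8 of the 10 genes. TATAAAA began 32 bases before the start in Anxa1, 17 in Anxa2 and 130 in Fpr2, and 4.98% of all 32851 windows held it. AGAACA stood in the windows of Fpr1 and Anxa4 and in no other of these genes, and 16.1% of all windows held it. The full element, which is this hexamer, 3 free bases and its reverse complement, and so overlaps the hexamer, was in 3 of all windows and in no window of these genes. GAGGAA was found in Anxa1 on the sense strand and in Fpr2 and Anxa11 on the other, and 23.3% of all windows held it. These matches describe letters only.

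Total counts ran from 18020220 to 38237346 per library, so that a count of 0 allows up to 0.0785 to 0.166 CPM (counts per 1000000 counts of a library, taken as 3 counts, counting error only). The labelled cell type was checked against its markers. Of 10 endothelial markers 3 had no read (Tek, Emcn and Cldn5), and Cdh5, which encodes VE-cadherin, reached at most 0.994 CPM. Vwf, which encodes von Willebrand factor and is also a megakaryocyte transcript, was the highest of the 10, at 16.7 to 44.8 CPM in stressed and 16.0 to 42.3 CPM in non-stressed libraries. The monocyte and macrophage markers averaged 9.83 to 10.03 in stressed and 9.72 to 10.07 in non-stressed libraries on the log2(CPM + 1) scale, against 0.627 to 0.772 and 0.582 to 0.842 for the endothelial list. The values below are thus from libraries rich in myeloid and poor in endothelial transcripts. Stressed replicate 1 and non-stressed replicate 1 stood farthest from the rest on the first 2 principal components. A further split is that 6 libraries (3 per group) had Y-linked Ddx3y transcripts at more than 100 reads and the other 4 (2 per group) held Xist.

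None of the 10 genes passed the test between stressed and non-stressed libraries. With edgeR's quasi-likelihood test and Benjamini-Hochberg adjustment over all 13334 genes tested, 0 of the 10 genes were past an adjusted p of 0.05, and 0 with DESeq2 or limma-voom. The background is low as well: 1 of all genes tested, Chil3, passed, which is 0.0075% of them. At an unadjusted p under 0.05 there were 2 of the 10, Anxa1 and Anxa2, both higher in stressed libraries and 0 lower. Of all genes tested 5.53% had such a p, 2.59% higher and 2.95% lower. All 10 passed the filter on low counts. Of their log2 fold changes 8 were above 0 and 2 below, with a median of 0.10, against a median of 0.004 over all genes tested, of which 50.9% were above 0. In none of the 10 did the groups separate fully, as they did in 1.11% of all genes tested (0.592% higher and 0.517% lower). In bulk libraries such as these, fewer cells of a type and less RNA per cell cannot be told apart.

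**Figure D1:**
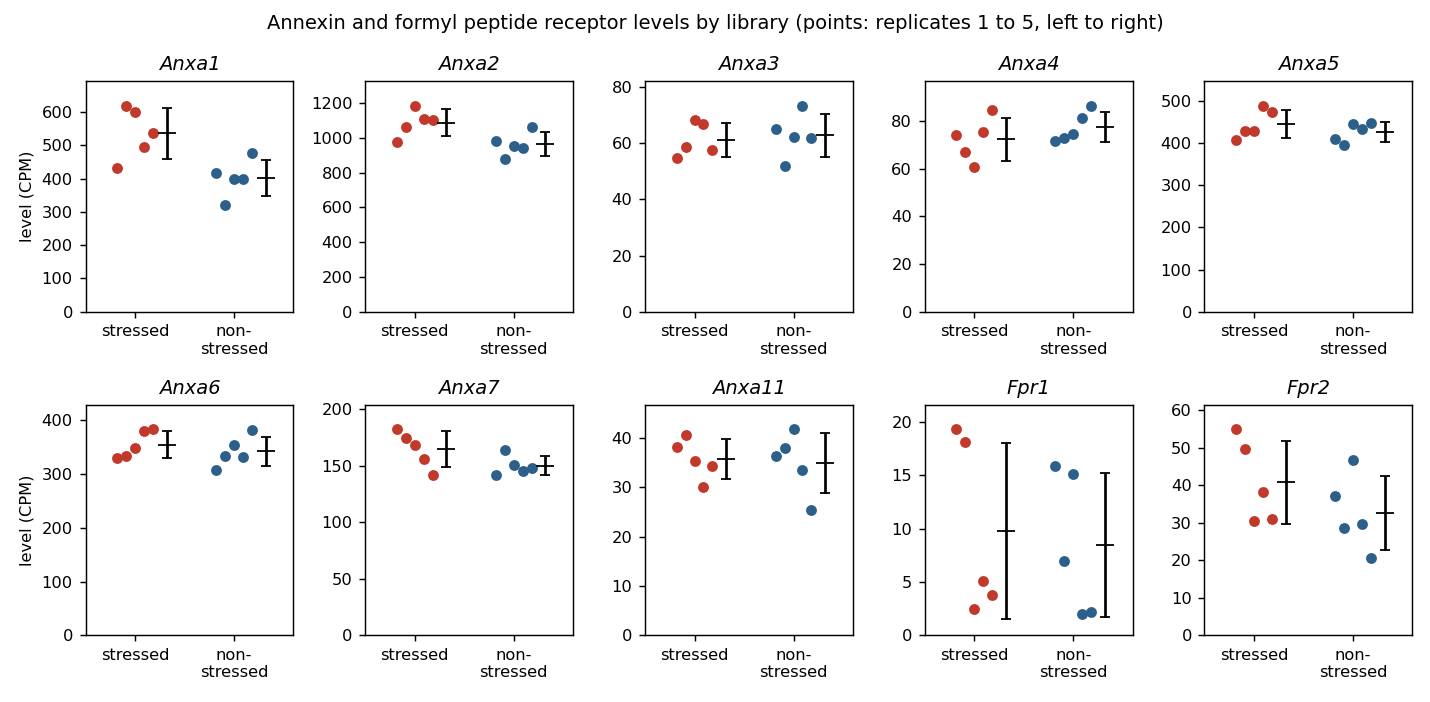
Level of each gene in CPM (vertical axes, from 0) in the 5 stressed and 5 non-stressed libraries, with points for libraries and bars for the mean and SD. For Anxa1, 4 of 5 stressed libraries lie above all non-stressed ones, while Fpr1 spans 2.04 to 19.3 CPM with both groups covering most of that range.

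Anxa1 (ENSMUSG00000024659, chromosome 19, 20373428 to 20390944, minus strand, mm10), the ligand of the group, had 431, 619, 600.0, 496 and 537 CPM in stressed replicates 1 to 5, against 417, 322, 399, 399 and 476 CPM in non-stressed replicates 1 to 5. All stressed libraries but replicate 1 exceeded every non-stressed library, and replicate 1 lay below non-stressed replicate 5. The means were 537 ± 76.9 CPM in stressed and 402 ± 54.9 CPM in non-stressed libraries (SD, n = 5 each). On the log2 scale the fold change was 0.42 (SE 0.11, 95% interval 0.19 to 0.65), a 1.34-fold difference. Its p was 0.00166 before adjustment, the place of 28 among all genes tested, and the edgeR adjusted p was 0.684. At 9338 to 14950 reads per library, counting error was small beside the spread between libraries.

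The value for Anxa1 kept its sign in every library left out in turn, at 0.34 to 0.49. Without the pair of libraries that stand apart it was 0.50 (edgeR adjusted p = 0.556). Over all alternatives the adjusted p ran from 0.0813, where the neutrophil marker level entered the model, to 0.999 (edgeR, DESeq2 and limma). The difference between group means of log2 TMM-scaled CPM was 0.61 in the libraries with Y-linked transcripts (n = 3 per group). It was 0.13 in those with Xist (n = 2 per group). The edgeR interaction of this split with stress was 0.48 for Anxa1 (SE 0.20), with an edgeR adjusted p of 1, and 0 of all genes tested passed it. 

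Anxa2 (ENSMUSG00000032231, chromosome 9, 69453620 to 69491795, plus strand) encodes the annexin that, with S100A10, holds plasminogen and its activator at the cell surface. It had 974, 1064, 1185, 1109.9 and 1102 CPM in stressed replicates 1 to 5, against 983, 879, 955, 943 and 1065 CPM in non-stressed replicates 1 to 5. The lowest stressed library lay among the non-stressed ones, and 3 of 5 stressed libraries exceeded all of them. The log2 fold change was 0.18 (SE 0.07, 95% interval 0.03 to 0.32, edgeR adjusted p = 0.874). Within the libraries with Y-linked transcripts the difference was 0.27, and within those with Xist it was 0.03. An annotated transcript on the opposite strand, Gm16144, overlaps its exons and had 650 reads in all, and since the strand setting of the counting is not given, reads of such pairs cannot be told apart.

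Fpr1 (ENSMUSG00000045551, chromosome 17, 17876471 to 17883940, minus strand) encodes the receptor with high affinity for bacterial formylated peptides. It had 19.3, 18.2, 2.50, 5.10 and 3.78 CPM in stressed replicates 1 to 5, against 15.8, 6.98, 15.1, 2.04 and 2.16 CPM in non-stressed replicates 1 to 5. Both groups held libraries at high and at low levels, and the highest library had 9.44 times the level of the lowest. That ratio was 1.24 to 1.92 for the annexins and 2.65 for Fpr2. The means of Fpr1 were 9.76 ± 8.24 CPM in stressed and 8.43 ± 6.75 CPM in non-stressed libraries (SD, n = 5 each). Its log2 fold change was 0.21 (SE 0.64, 95% interval -1.14 to 1.57, edgeR adjusted p = 0.993). The sign was negative without stressed replicate 1 or 2 or non-stressed replicate 4 or 5. The library with the fewest Fpr1 reads had 45.

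Fpr2 (ENSMUSG00000052270, chromosome 17, 17887824 to 17893952, plus strand) encodes the receptor through which annexin A1 and lipoxin A4 act. It had 54.9, 49.7, 30.5, 38.4 and 30.9 CPM in stressed replicates 1 to 5, against 37.1, 28.6, 46.8, 29.8 and 20.7 CPM in non-stressed replicates 1 to 5. The groups overlapped, and 2 stressed libraries exceeded the highest of the non-stressed libraries. The means were 40.9 ± 11.1 CPM in stressed and 32.6 ± 9.85 CPM in non-stressed libraries (SD, n = 5 each), and the log2 fold change was 0.33 (SE 0.21, 95% interval -0.12 to 0.78, edgeR adjusted p = 0.945). Its annotated exons overlap those of Fpr3, a close relative that is listed at 0 reads in every library, so the split of reads between them is uncertain.

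The other annexins lay close together in both groups. Anxa7 (ENSMUSG00000021814, chromosome 14, 20455260 to 20480133, minus strand), which promotes membrane fusion, averaged 165 ± 15.9 CPM in stressed and 149.9 ± 8.36 CPM in non-stressed libraries, with 3 stressed libraries above all others (SD, n = 5 each). Its log2 fold change was 0.14 (SE 0.08, edgeR adjusted p = 0.940). Anxa5 (ENSMUSG00000027712, chromosome 3, 36448923 to 36475894, minus strand), whose product binds phosphatidylserine on dying cells and platelets, averaged 445 ± 34.1 CPM in stressed and 426 ± 22.9 CPM in non-stressed libraries, a log2 fold change of 0.07 (SE 0.07). Anxa6 (ENSMUSG00000018340, chromosome 11, 54979108 to 55033445, minus strand), a scaffold for a Ras GTPase-activating protein, averaged 354 ± 25.7 CPM in stressed and 342 ± 27.7 CPM in non-stressed libraries, with 0.06 (SE 0.07).

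Anxa3 and Anxa4 had log2 fold changes below 0. Anxa3 (ENSMUSG00000029484, chromosome 5, 96793339 to 96845966, plus strand), known from neutrophil granules, averaged 61.2 ± 6.02 CPM in stressed and 62.8 ± 7.74 CPM in non-stressed libraries, with -0.03 (SE 0.11). Anxa4 (ENSMUSG00000029994, chromosome 6, 86736840 to 86793584, minus strand), best known in epithelia, averaged 72.4 ± 9.04 CPM in stressed and 77.5 ± 6.29 CPM in non-stressed libraries, with -0.09 (SE 0.10). Anxa11 (ENSMUSG00000021866, chromosome 14, 25842156 to 25886804, plus strand), which tethers RNA granules to lysosomes, averaged 35.7 ± 3.96 CPM in stressed and 34.9 ± 6.12 CPM in non-stressed libraries, with 0.03 (SE 0.14). The 95% interval of the fold change of Anxa5, Anxa6 or Anxa7 reached at most 1.24-fold, and that of Fpr1 reached from 0.453-fold to 2.97-fold.

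**Figure D2:**
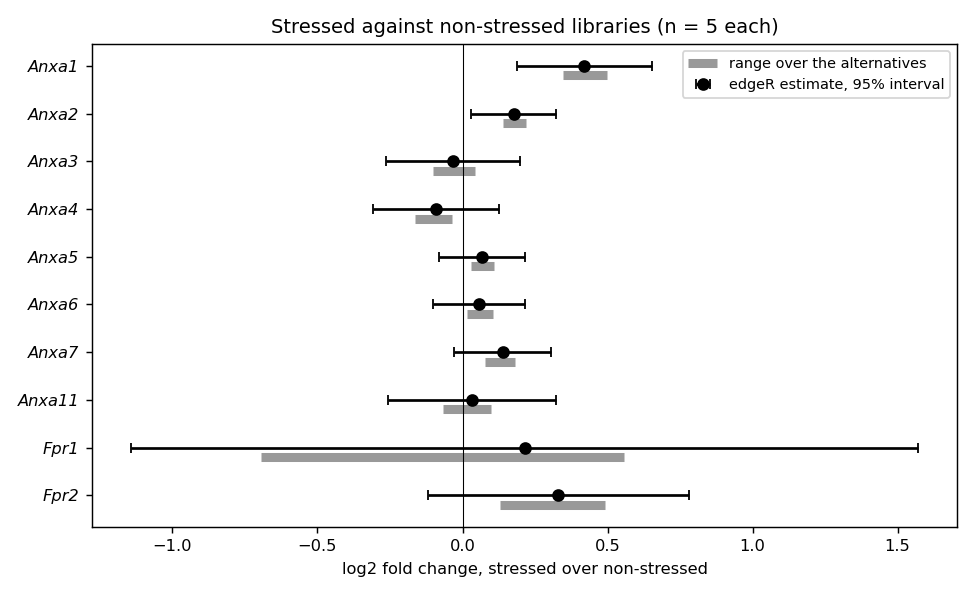
Log2 fold change of stressed over non-stressed libraries for each gene (horizontal axis), with the edgeR estimate and its 95% interval in black and the range over 20 alternative settings in grey. The intervals of Anxa1 and Anxa2 lie above 0 before adjustment over all genes, and that of Fpr1 runs from -1.14 to 1.57.

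Levels of different genes were compared per kilobase of annotated exon (RPKM computed here from the counts). Anxa2 was highest at 291 ± 20.6 RPKM in stressed and 259 ± 18.2 RPKM in non-stressed libraries (SD, n = 5 each), and lay above Anxa5 in all 10 libraries. Anxa5 followed at 250.3 ± 19.2 RPKM in stressed and 239.7 ± 12.9 RPKM in non-stressed libraries. Anxa1 came next at 184 ± 26.4 RPKM in stressed and 138 ± 18.9 RPKM in non-stressed libraries. Anxa6 stood at 121 ± 8.77 RPKM in stressed and 117 ± 9.45 RPKM in non-stressed libraries. Fpr2, Anxa7, Anxa3, Anxa4, Anxa11 and Fpr1 had mean levels of 28.4, 26.2, 17.0, 16.1, 8.54 and 6.87 RPKM over the 10 libraries. Neighbours did not keep 1 order in the pairs Fpr2 and Anxa7, Anxa3 and Anxa4, and Anxa11 and Fpr1, where the first was higher in 6 of 10 libraries each. Anxa1 was above Anxa6 in 9 of 10 libraries, the exception being non-stressed replicate 2 at 111 RPKM for Anxa1 and 114 RPKM for Anxa6. The order of Anxa1 and Anxa5 depended on the length used: with the longest principal transcript, an alternative added after the data were seen, Anxa1 took place 2 and Anxa5 place 3. Fpr2 took place 8 with that length, against 5 with all annotated exons.

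Some of the genes varied together over the 10 libraries, but no pair passed with values centred on the group means. Of 45 pairs, 3 had a Pearson correlation past an adjusted p of 0.05 (permutation test with 100000 resamples, two-sided, on log2 TMM-scaled CPM). Anxa1 and Anxa2 had r = 0.913 (permutation p = 0.000470, adjusted p = 0.0211) and Spearman's rho = 0.855 (permutation p = 0.00266, adjusted p = 0.0781). Without the 2 libraries farthest from the median of Anxa1, r was 0.981 (permutation p = 7.00e-05, adjusted p = 0.00315). With values centred on the group means, which takes out the group difference, it was 0.826 (permutation p = 0.0100, adjusted p = 0.150). The call was lost there.

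Fpr1 and Fpr2 had r = 0.840 (permutation p = 0.00271, adjusted p = 0.0406) and rho = 0.806 (permutation p = 0.00749, adjusted p = 0.112). Without the 2 libraries farthest from the median of Fpr1, stressed replicates 1 and 2, r was 0.731 (permutation p = 0.0344, adjusted p = 0.362), which is no longer past the threshold with the 8 libraries left. Anxa5 and Anxa6 had r = 0.845 (permutation p = 0.00248, adjusted p = 0.0406) and rho = 0.842 (permutation p = 0.00347, adjusted p = 0.0781). Without the 2 libraries farthest from the median of Anxa5, stressed replicates 4 and 5, r was 0.704 (permutation p = 0.0440, adjusted p = 0.362), and this call too was lost with the 8 libraries left. Centred on the group means, these pairs had r = 0.885 and r = 0.831 (permutation, adjusted p = 0.150 for both). Anxa11 had r = 0.700 with Fpr1 and r = 0.730 with Fpr2 (permutation, adjusted p = 0.138 for both). The libraries share their preparation and differ in depth, and with 5 libraries a group no correlation is given within one group alone.

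**Figure D3:**
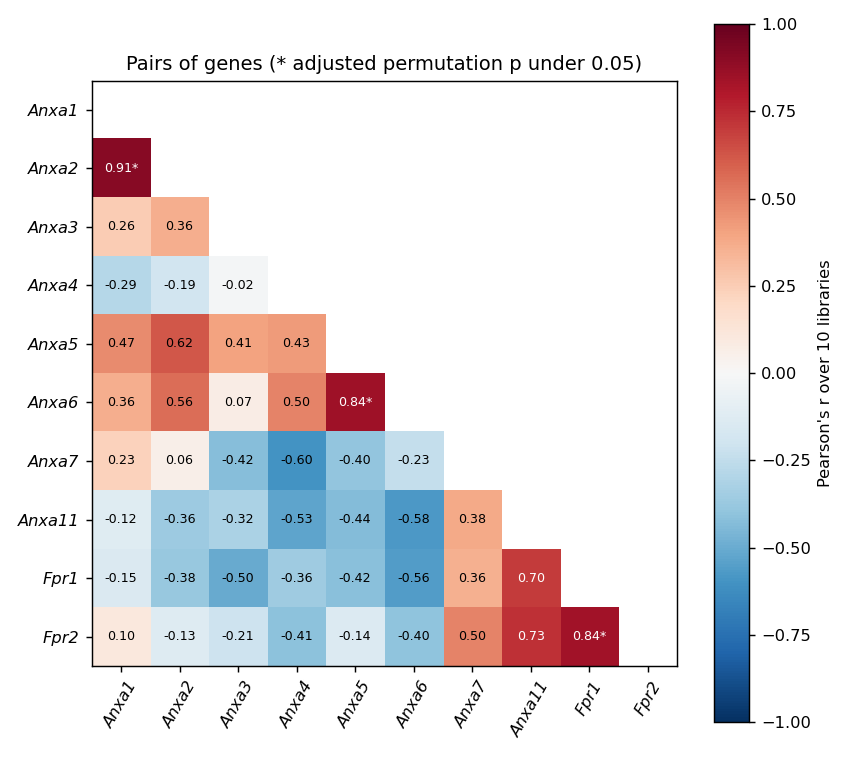
Pearson correlation of log2 TMM-scaled CPM over the 10 libraries for each pair of genes (colour and number). An asterisk marks an adjusted permutation p under 0.05. The marked pairs are Anxa1 with Anxa2 at 0.91, Anxa5 with Anxa6 at 0.84 and Fpr1 with Fpr2 at 0.84.

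Formyl peptide receptors, Anxa1 and Anxa3 are also transcripts of neutrophils, so these 4 genes were set against the mean log2(CPM + 1) of 10 neutrophil markers. That level was 5.92, 6.02, 4.09, 4.82 and 3.94 in stressed replicates 1 to 5, against 5.21, 5.38, 4.44, 3.44 and 3.49 in non-stressed replicates 1 to 5. All 10 markers had reads over the libraries together, but Ly6g, Ngp, Camp and Ltf had none in some libraries. Ly6g, the defining surface marker, stood at 0 to 5.19 CPM, while Csf3r, which monocytes also express, stood at 578 to 969 CPM. Other marker lists varied as well. The T and NK cell list stood at 2.77, 2.80, 1.16, 1.07 and 0.872 on the same scale in stressed replicates 1 to 5. In non-stressed replicates 1 to 5 that list stood at 2.90, 3.31, 2.27, 1.14 and 1.22. The non-classical monocyte list stood at 8.78, 8.59, 8.43, 8.19 and 8.15 in stressed replicates 1 to 5. It stood at 9.13, 8.94, 8.94, 7.94 and 8.22 in non-stressed replicates 1 to 5. The 4 genes were set against the neutrophil list alone. Whether a relation is particular to neutrophil markers was not tested. Fpr1 was higher in libraries with a higher neutrophil level, with r = 0.861 (permutation p = 0.00298, adjusted p = 0.0119 over 4 relations) and rho = 0.915 (permutation p = 0.000440, adjusted p = 0.00176). Without the 2 libraries farthest from the median neutrophil level, stressed replicates 1 and 2, r was 0.768 (permutation p = 0.0299, adjusted p = 0.120), so the call was lost with the 8 libraries left. Centred on the group means, it was 0.880 (permutation, adjusted p = 0.0290).

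Fpr2 had r = 0.727 (permutation p = 0.0185, adjusted p = 0.0370) and rho = 0.648 (permutation p = 0.0486, adjusted p = 0.0972), and r = 0.461 without the same libraries (permutation p = 0.254, adjusted p = 0.254), so that this call was lost as well. For Anxa1 no such relation was detected, with r = -0.06 (permutation p = 0.875, adjusted p = 0.875) and rho = 0.07 (permutation p = 0.865, adjusted p = 0.865), and r = -0.46 without those libraries (permutation p = 0.246, adjusted p = 0.254). Anxa3 had r = -0.61 (permutation p = 0.0652, adjusted p = 0.0869) and rho = -0.54 (permutation p = 0.114, adjusted p = 0.153), and r = -0.48 without those libraries (permutation p = 0.225, adjusted p = 0.254). Centred on the group means, r was -0.46 for Anxa1 (permutation p = 0.210, adjusted p = 0.210). For Anxa3 the centred r was -0.61 (permutation p = 0.0851, adjusted p = 0.113). With the neutrophil level as a covariate, the log2 fold change was 0.48 for Anxa1 (edgeR adjusted p = 0.0813), 0.22 for Anxa2 (adjusted p = 0.168), 0.13 for Fpr2 (adjusted p = 0.866) and -0.70 for Fpr1 (adjusted p = 0.545). The markers behind this level did not vary alike. Mmp8 stood at 112 to 178 CPM in stressed and 63.8 to 105 CPM in non-stressed libraries. S100a8 stood at 75.7 to 362 CPM in stressed and 35.7 to 567 CPM in non-stressed libraries. How Anxa1 stands to single markers was not tested. With Mmp8 among its markers, the covariate need not reflect neutrophil content alone.

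**Figure D4:**
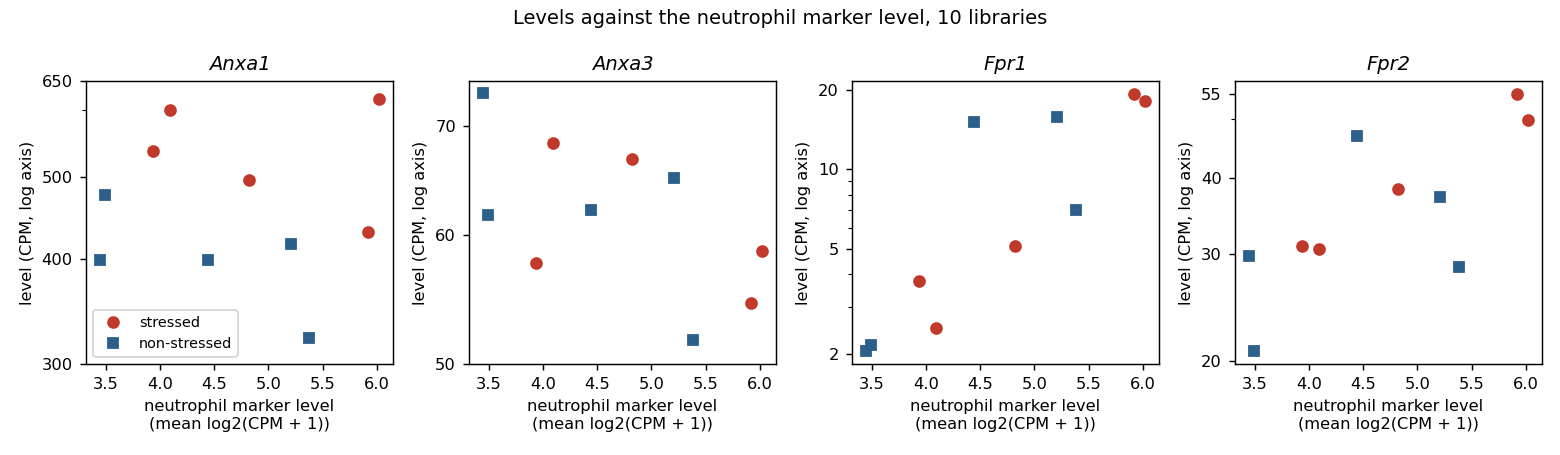
Level in CPM (vertical axes, log scale) of 4 genes against the neutrophil marker level (horizontal axes, mean log2(CPM + 1)) in stressed (circles) and non-stressed (squares) libraries. Fpr1 and Fpr2 are highest in the stressed libraries with neutrophil levels of 5.92 and 6.02. Anxa1 has r = -0.06 over the same range, and r = -0.46 with values centred on the group means.

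Of the rest of both families little was counted. Of 9 further genes, Anxa10, Anxa13, Fpr3, Fpr-rs3, Fpr-rs4, Fpr-rs6 and Fpr-rs7 had 0 reads in every library and Anxa8 had 10 reads in 1. Anxa9 stood at 1.30 to 7.89 CPM, with a log2 fold change of 0.59 (SE 0.47, edgeR adjusted p = 0.950). 

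Of 10 genes for proteins that bind annexins 9 were tested. None of them passed the test, and all 9 had log2 fold changes above 0, with a median of 0.16. Over all genes tested, 50.9% were above 0 and the median was 0.004, and the lists that follow are to be read against the same shares. An unadjusted p under 0.05 was found for 1 of the 9, against 2.59% of all genes tested that were higher at that level. That gene was S100a4, a calcium-binding partner of annexin A2, at 189 ± 27.5 CPM in stressed and 154 ± 17.8 CPM in non-stressed libraries (TMM-scaled, SD, n = 5 each), with a log2 fold change of 0.30 (SE 0.11, edgeR adjusted p = 0.836). S100a10, the subunit that forms the surface complex with annexin A2, had 0.21 (SE 0.10), S100a6, another S100 partner, 0.18 (SE 0.09) and Sri, the annexin A7 partner sorcin, 0.16 (SE 0.08). Dysf, which encodes the membrane repair protein dysferlin, reached at most 0.415 CPM and was the 1 gene not tested.

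Downstream of the receptors, 8 of 12 signalling genes were above 0 and 4 below, with a median of 0.03 and 0 past the edgeR threshold. Of them 1, Pik3r5, a regulatory subunit of phosphoinositide 3-kinase gamma, had an unadjusted p under 0.05, with 0.17 (SE 0.08, edgeR adjusted p = 0.874). Such a p was found for 5.53% of all genes tested. Arrb2, the arrestin that ends receptor signalling, had 0.12 (SE 0.07), the G protein subunit gene Gnb2 0.11 (SE 0.07) and the catalytic subunit gene Pik3cg -0.11 (SE 0.10).

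Among 12 genes of annexin A1 processing and lipid mediators, 10 were tested, with 7 above 0, 3 below and a median of 0.10, and 0 passed the edgeR test over all genes. Adam17, a sheddase, had -0.23 (SE 0.08, edgeR adjusted p = 0.829) and Prtn3, which encodes proteinase 3 that cleaves annexin A1, 0.92 (SE 0.39, edgeR adjusted p = 0.874) at 12.3 ± 5.60 CPM in stressed and 6.48 ± 3.48 CPM in non-stressed libraries (TMM-scaled, SD, n = 5 each). These were the 2 with an unadjusted p under 0.05, 1 higher and 1 lower, against 5.53% of all genes tested in either direction. Alox5ap, the partner of 5-lipoxygenase, had 0.15 (SE 0.08) and Trpm7, a channel kinase that phosphorylates annexin A1, -0.15 (SE 0.08).

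The glucocorticoid receptor gene Nr3c1, Hsd11b1 and known targets of the receptor were counted in the same libraries. Of 8 genes 7 were above 0 and 1 below, with a median of 0.32, while 50.9% of all genes tested were above 0, and 0 of the 8 passed the edgeR test. An unadjusted p under 0.05 was found for 3 of the 8, all higher, against 2.59% of all genes tested. Fkbp5, the co-chaperone induced through the glucocorticoid receptor, had 1.14 (SE 0.23, edgeR adjusted p = 0.349), with all 5 stressed libraries above all non-stressed ones (0.592% of all genes tested), at 39.3 ± 12.4 CPM in stressed and 17.8 ± 4.93 CPM in non-stressed libraries (TMM-scaled, SD, n = 5 each). Dusp1 and Per1 had 0.56 (SE 0.23) and 0.53 (SE 0.23), and the receptor gene Nr3c1 had -0.16 (SE 0.10). The 0.42 of Anxa1 was below the values of Fkbp5, Dusp1 and Per1 and above the median of the list.

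Likeness was the Pearson correlation of log2 TMM-scaled CPM, centred on the group means over the 10 libraries, as a description without a test. The genes most like Anxa1 and Fpr2 were sought among 5386 genes with an average of at least 5 log2 CPM. For Anxa1 these were Tmem14c at 0.94, Rab36 at 0.93, Cramp1l at 0.93, Hp at 0.92 and Ubb at 0.91. For Fpr2 they were Spata13 at 0.96, Cd274 at 0.94, Mapkapk2 at 0.93, Washc5 at 0.91 and Mbnl2 at 0.90. All share these libraries and their depth, and the highest of so many correlations over 10 libraries are high by selection.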

How the data were processed

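RNA of sorted cells was sequenced from TruSeq Stranded libraries, per the labels' protocols, and Trimmomatic, STAR and featureCounts were used with mm10, per the submitters' processing notes. The sources used here give neither tool versions nor the annotation or strandedness used for counting. The authors deposited raw read counts per gene, not normalized. Of 48526 identifiers 48058 matched a symbol. Total counts were 18020220 to 38237346 per library. No pair of libraries within a group was a duplicate (chi-square per degree of freedom of at least 21.1). Pairs across groups were not compared in this way.

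The test was that of edgeR 4.0.16 under R 4.3.3 (filterByExpr with a minimum count of 10, TMM factors, intercept and group, quasi-likelihood F test, Benjamini-Hochberg over 13334 genes, threshold 0.05), checked on simulated counts. Standard errors are the fold change divided by the square root of F. Plain CPM used library totals. Alternatives used DESeq2 1.42.0 and limma 3.58.1. Permutation tests used numpy 2.4.6. Promoter windows are from RefSeq, GRCm38.p6, and gene positions and exon lengths from GENCODE M21.

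The genes, lists and tests were chosen with earlier results of these data known. All 10 genes were named, with list members of smallest p (up to 4 per list) and the 5 genes most like Anxa1 and Fpr2. The labels do not say that replicates were separate animals. Since each group holds libraries with Y-linked and libraries with Xist transcripts, not all libraries of a group came from 1 animal, but how many animals stand behind each group is not known, and each p-value reflects the spread among these samples.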

Additional observations from a re-analysis of the deposited data

Results flagged for a closer look

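Pik3r5, which encodes a subunit of phosphoinositide 3-kinase gamma, had 338.6 CPM in stressed replicate 2, while the nearest of the other stressed libraries had 287 CPM, a gap of 0.793 of the range of the group. It was the 1 value flagged among 54 groups of 5 libraries checked for a sample far from the others, where chance flags about 1 in 20 groups.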

How the results depend on the processing

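The 10 genes held 0 calls under the 20 alternatives fitted over all genes, and Anxa1, Anxa2, Anxa4, Anxa5, Anxa6, Anxa7 and Fpr2 kept their sign in each. Leaving out 1 library gave 0.34 to 0.49 for Anxa1, 0.14 to 0.21 for Anxa2 and 0.20 to 0.49 for Fpr2. It gave -0.19 to 0.56 for Fpr1 (below 0 without stressed replicate 1 or 2 or non-stressed replicate 4 or 5), -0.10 to 0.031 for Anxa3 (above 0 without stressed replicate 1 or non-stressed replicate 4) and -0.067 to 0.10 for Anxa11 (below 0 without stressed replicate 2 or non-stressed replicate 5). Signs also turned with limma-voom quality weights (Anxa3 0.041, Anxa11 -0.028, Fpr1 -0.21) and with the neutrophil covariate (Anxa3 0.028, Anxa11 -0.037, Fpr1 -0.70). Added after the data were seen, leaving out both first replicates gave 0.015 for Anxa3, the libraries with Y-linked transcripts 0.059 for Anxa3 and -0.10 for Anxa11, and those with Xist 0.021 for Anxa4. The cause was not tested. Over all genes, calls were 1 in the reported fit, 18 with DESeq2, 2 with limma-voom, 15 with the neutrophil covariate, 10 with no filter on low counts, 4 when the replicate block was fitted (adjusted p for Anxa1 = 0.300, edgeR) and 1 to 2 with a library left out (2 without non-stressed replicate 5). The labels do not say that a replicate number marks a pair. Same-number libraries had correlations of their deviations from the group means of -0.027 to 0.156, over 0.1 for 4 of 5, 7 of 10 libraries correlated best with their own number, and numbers 1 and 5 held Xist and 2 to 4 Y-linked transcripts in both groups. This is a hint of pairing from the data, not the design. Of the 3 pairs of genes past the threshold, 1 passed without the 2 farthest libraries and 0 with values centred on the group means. The correlations with the neutrophil level were 0.768 for Fpr1 and 0.461 for Fpr2 without the 2 farthest libraries, and 0.690 for Fpr2 with centred values. Depth limits Fpr1 most, at 45 to 534 reads per library.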
